A study of Mus musculus with 28 samples.

Results

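The genes described here are the 9 that encode the enzymes which write, copy and remove 5-methylcytosine in mouse DNA, together with their closest partners: Dnmt1, Uhrf1, Dnmt3a, Dnmt3b, Dnmt3l, Tet1, Tet2, Tet3 and Tdg. They were named by symbol for what they encode, with earlier results of these data known, and each symbol matched 1 of the 22138 genes of the deposited expression table. The study examined primordial germ cells (PGCs), from which sperm and eggs later form, in gonads of E13.5 embryos, with or without Setdb1, a histone methyltransferase that places trimethylation on lysine 9 of histone H3 (H3K9me3). PGCs were sorted by flow cytometry as cells carrying the surface antigen SSEA1, and gonadal somatic cells (soma) as cells lacking it. Of the 28 samples, 16 were RNA-seq libraries, and 9 chromatin immunoprecipitation (ChIP-seq) libraries had values at gene promoters.

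The genotypes were as follows. Heterozygous PGCs (Het) came in 2 kinds, Setdb1 delta/+ (Het1) and Setdb1 flox/- (Het2), with 2 RNA libraries of each kind per sex, so that male and female Het each had 4 libraries. Knockout PGCs (KO) were Setdb1 delta/-, with 2 libraries per sex. Every Het and KO library therefore came from cells with at most 1 working Setdb1 allele. There was 1 library per sex of Setdb1 flox/+ PGCs (WT), and 1 library each of male PGCs and male soma from C57BL/6 mice without the Setdb1 alleles. The labels name neither the Cre driver nor the number of embryos behind a library, and they do not say that same-group libraries came from separate embryos, so p-values below measure the spread between these libraries, which may be technical. All expression levels are RPKM, reads per kilobase of transcript scaled to the size of the library, and are therefore per length. The read depth behind them is unknown, because low values were not whole multiples of what 1 read is worth. The RPKM of a library summed to between 295821 and 345131, and between 15114 and 17371 of the 22138 genes were above 0, with 16538 to 17371 in the 4 KO libraries and 15114 to 16931 in the 8 Het libraries. The label of the sorted cells was borne out by a list of 8 germ cell markers, whose RPKM summed to 1058 to 2324 in the PGC libraries and to 13.9 in soma.

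DNA methylation in mammals sits mainly on the cytosine of CG dinucleotides. DNMT1 copies the pattern onto the new strand after replication and is brought to hemimethylated sites by UHRF1, whereas DNMT3A and DNMT3B place new methylation and DNMT3L, which has no catalytic activity of its own, stimulates them. TET1, TET2 and TET3 oxidise 5-methylcytosine, and TDG excises the more oxidised forms so that base excision repair can restore an unmodified cytosine. Mouse PGCs lose nearly all methylation on their way to and into the gonad. Male germ cells regain it before birth and female germ cells regain it in growing oocytes after birth.

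The promoter sequences of 5 members are shown as background. Tet3, Dnmt3b and Dnmt3l had high H3K27me3 in PGCs, as had Uhrf1, whose sequence is not shown. Tet1 and Tet2 were the members whose RNA differed between the sexes in Het. No later result was drawn from the sequences shown. Each is the 250 bases before the RefSeq transcription start (build GRCm38.p6), read 5′ to 3′ on the gene's strand, with every CG dinucleotide in capitals. The motif CG reads the same on both strands.
Tet3: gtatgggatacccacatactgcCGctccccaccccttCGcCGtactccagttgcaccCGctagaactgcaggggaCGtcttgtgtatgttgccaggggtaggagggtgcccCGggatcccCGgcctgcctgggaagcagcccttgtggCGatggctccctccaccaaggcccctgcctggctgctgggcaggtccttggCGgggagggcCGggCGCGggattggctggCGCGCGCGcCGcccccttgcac
Dnmt3b: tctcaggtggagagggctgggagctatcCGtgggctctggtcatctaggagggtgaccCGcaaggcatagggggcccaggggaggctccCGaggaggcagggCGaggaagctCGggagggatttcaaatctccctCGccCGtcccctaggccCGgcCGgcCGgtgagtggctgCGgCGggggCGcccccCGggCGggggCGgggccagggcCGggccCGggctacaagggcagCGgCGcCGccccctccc
Dnmt3l: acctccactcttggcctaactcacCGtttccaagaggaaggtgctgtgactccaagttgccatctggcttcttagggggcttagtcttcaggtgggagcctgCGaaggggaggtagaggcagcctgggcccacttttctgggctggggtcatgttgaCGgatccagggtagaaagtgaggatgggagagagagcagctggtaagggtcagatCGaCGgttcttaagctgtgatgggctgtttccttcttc
Tet1: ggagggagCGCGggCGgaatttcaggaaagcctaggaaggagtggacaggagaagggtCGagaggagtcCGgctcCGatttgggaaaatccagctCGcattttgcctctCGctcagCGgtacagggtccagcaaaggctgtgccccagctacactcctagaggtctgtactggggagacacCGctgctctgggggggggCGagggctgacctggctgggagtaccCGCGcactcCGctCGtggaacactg
Tet2: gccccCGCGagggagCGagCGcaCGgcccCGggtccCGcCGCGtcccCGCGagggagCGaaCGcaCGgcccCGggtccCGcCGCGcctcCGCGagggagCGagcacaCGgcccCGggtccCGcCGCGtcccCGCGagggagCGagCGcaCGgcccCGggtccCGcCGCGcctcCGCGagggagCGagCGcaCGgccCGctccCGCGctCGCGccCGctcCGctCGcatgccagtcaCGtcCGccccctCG
The Tet3 window is chr6:83441679-83441928 on the minus strand and held 17 CG. The Dnmt3b window, chr2:153649199-153649448 on the plus strand, held 21, and that of Tet1, chr10:62887325-62887574 on the minus strand, held 15. Tet2 (chr3:133544391-133544640, minus strand) held 51, and 0.067% of the 32851 RefSeq promoters of that length held as many or more. Dnmt3l has 3 annotated starts, and the first (chr10:78042037-78042286, plus strand) held 5 CG, below the median of 6 over all promoters. At least 1 CG was present in 92.1% of those promoters, so its presence alone says little. The ChIP windows of the authors lie around Ensembl starts of build mm9 and may be centred on another start than these.

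Setdb1 itself (ENSMUSG00000015697), the targeted gene, averaged 46.1 ± 6.25 RPKM (SD, n = 4) in male Het and 29.2 ± 2.89 (n = 2) in male KO. In females it averaged 45.7 ± 9.05 in Het (n = 4) and 33.0 ± 2.38 in KO (n = 2). The KO libraries were the lowest in both sexes. The difference over both sexes was -0.54 on the log2(RPKM + 1) scale (SE 0.13), with an adjusted p of 0.0783 in limma, above the threshold of 0.05. The RPKM of a whole gene does not show whether the remaining RNA lacks the deleted part.

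Dnmt1 (ENSMUSG00000004099) was the most abundant member in every PGC library, and its RNA varied by less than 2-fold over the libraries of the Setdb1 cross. Male Het libraries had 149, 163, 192 and 151 RPKM, female Het libraries 175, 127, 160 and 148. In KO it stood at 145 and 142 RPKM in males and at 149 and 149 in females, and in the WT libraries at 151 in males and 144 in females. The male KO libraries lay just below all 4 male Het libraries, and the female groups overlapped. Uhrf1 (ENSMUSG00000001228), the partner that recognises hemimethylated CG, was also well expressed. It had 33.8, 38.2, 49.0 and 32.6 RPKM in male Het and 37.2, 29.5, 51.0 and 25.8 in female Het. KO values were 42.6 and 42.9 in males and 50.5 and 43.2 in females, inside the Het range of each sex. Neither gene passed the test between sexes or genotypes.

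The de novo enzymes were present at much lower levels than Dnmt1. Dnmt3a (ENSMUSG00000020661) averaged 11.96 ± 1.04 RPKM in male Het (SD, n = 4) and 12.1 ± 1.19 in female Het (n = 4), and Dnmt3b (ENSMUSG00000027478) averaged 3.53 ± 0.51 and 3.25 ± 0.70. The difference of female minus male Het was 0.02 for Dnmt3a, with a 95% interval of -0.29 to 0.32 (log2), and -0.10 for Dnmt3b, from -0.46 to 0.25. Dnmt3l (ENSMUSG00000000730), which is abundant in male germ cells later in development, was listed at 0 in 9 of the 14 PGC libraries of the Setdb1 cross. The 4 female Het libraries were at 0, and the female KO libraries at 0.02 and 0. In males the Het libraries had 1.23, 0, 0.06 and 0 RPKM and the KO libraries 0.86 and 0.15. Only 1 library exceeded 1 RPKM, so Dnmt3l missed the filter of RPKM 1 or more in at least 2 of the 12 Het and KO libraries, and 8 of the 9 members were tested among 13518 genes. Without that filter the male KO minus Het difference of Dnmt3l was 0.24 (SE 0.29, adjusted p = 1 in limma).

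Tet1 (ENSMUSG00000047146) was the second most abundant member in male PGCs, with 53.2, 98.0, 62.2 and 104 RPKM in Het, 54.5 and 90.0 in KO, and 80.4 in WT. Female Het libraries had 29.3, 44.2, 18.3 and 57.9 RPKM, female KO libraries 16.9 and 32.7, and the female WT library 57.4. Most female values lay below the male ones, although the highest female Het library exceeded the lowest male Het library. In each of the 6 Het1, Het2 and KO groups, replicate 2 had more Tet1 than replicate 1, and 19.1% of all tested genes kept 1 sign over these 6 pairs of libraries. With the replicate number tested as a term, a choice made after these values were seen, Tet1 was the only member to pass (0.90 for number 2 minus 1 on the log2 scale, SE 0.13, adjusted p = 0.0105 in limma), while 10.2% of all tested genes passed, 4.76% higher and 5.44% lower. Tet2 (ENSMUSG00000040943) ran the other way between sexes: 6.88, 4.03, 3.02 and 5.05 RPKM in male Het against 7.49, 15.2, 5.84 and 13.9 in female Het. Male KO libraries had 6.64 and 5.72 RPKM, and female KO libraries 6.68 and 12.97, each inside the Het range of its sex. Tet3 (ENSMUSG00000034832) was low in male Het, with 2.06, 3.83, 1.83 and 4.03 RPKM, and in male KO, with 3.73 and 3.62. Female Het libraries had 3.32, 4.42, 6.79 and 4.50 RPKM, the female WT library 6.15, and the female KO libraries 12.03 and 9.18, above every other PGC library of the series. Tdg (ENSMUSG00000034674), the glycosylase that acts after the TET enzymes, averaged 4.79 ± 1.29 RPKM in male Het (n = 4) and 5.55 ± 1.35 in female Het (n = 4). The genome holds near-identical copies of Tdg, and the one listed in the table (Gm5806) was at 0 to 0.07 RPKM over the 16 libraries. Dnmt3b has a near copy too, Dnmt3c, which was not analysed here, and antisense transcripts are annotated at Dnmt3a and Dnmt3b. How shared reads and strand were treated in the counting is not given in the sources used here.

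**Figure D1:**
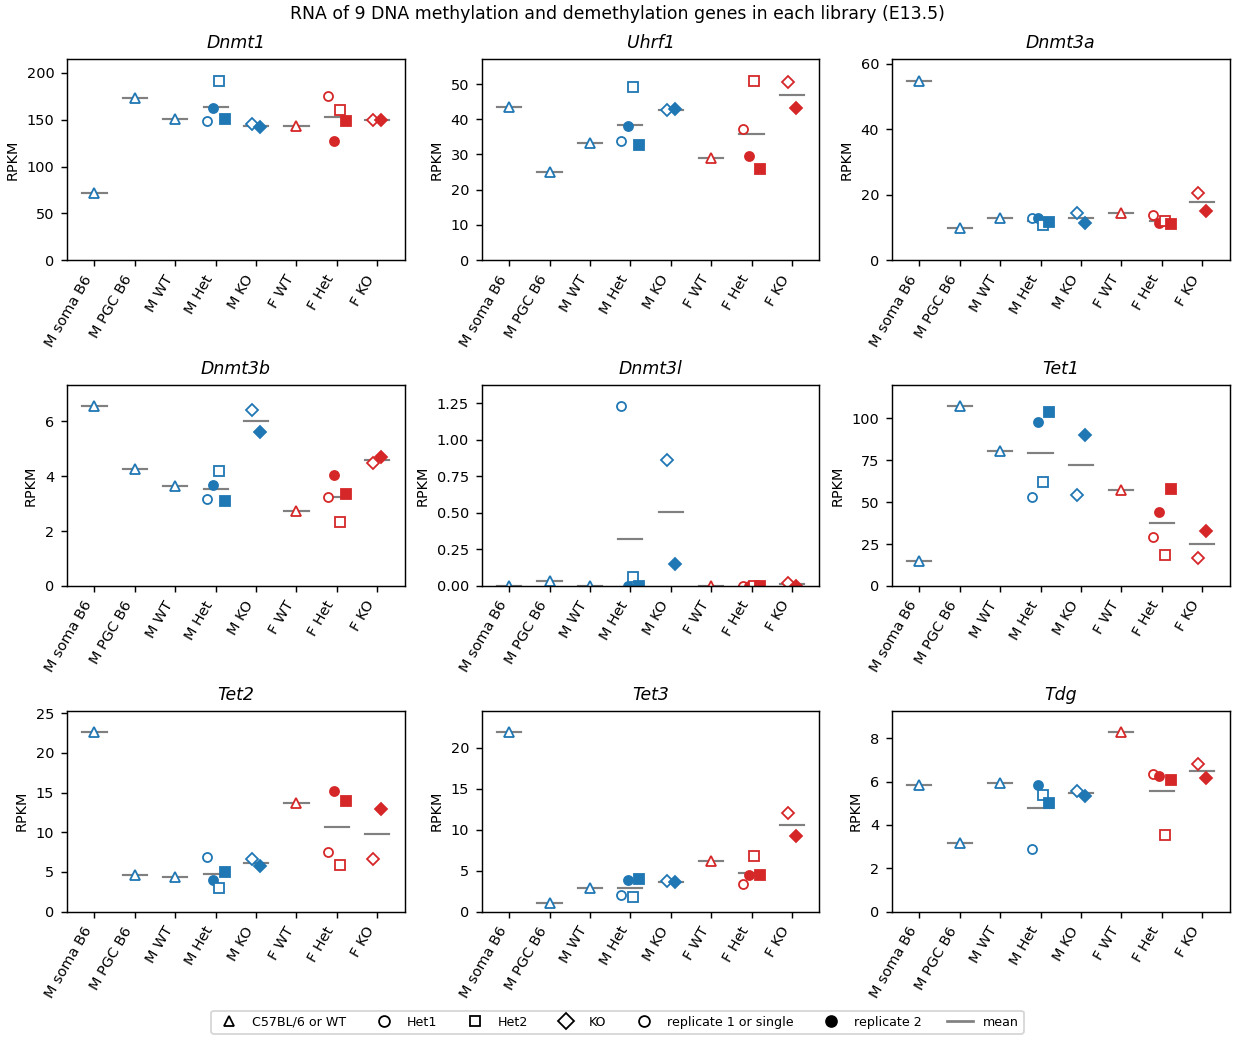
RNA level of each of the 9 genes, in RPKM, in each of the 16 RNA-seq libraries, 1 panel per gene with its own linear axis from 0. Blue marks male (M) and red female (F) libraries, open symbols replicate 1 or a single library, filled symbols replicate 2, and grey bars the group mean. Dnmt1 varied little over the PGC libraries, Tet1 was higher in males and in every replicate 2, and Tet3 in the female KO libraries (9.18 and 12.03 RPKM) exceeded all other PGC libraries.

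The order of the mean levels was the same at its upper end in male Het and KO: Dnmt1, then Tet1, Uhrf1 and Dnmt3a, with no overlap between neighbours. Below these, Tdg, Tet2, Dnmt3b and Tet3 in male Het overlapped from neighbour to neighbour, and Dnmt3l was last. In female Het the ranges of Tet1 (37.4 ± 17.3 RPKM, n = 4) and Uhrf1 (35.9 ± 11.1) overlapped, as did those of Dnmt3a and Tet2 (10.6 ± 4.64). In female KO, Uhrf1 (46.8 ± 5.15, n = 2) stood above Tet1 (24.8 ± 11.1), and Tet3 (10.6 ± 2.02) overlapped Tet2 (9.83 ± 4.45).

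The comparison of the sexes in Het PGCs called 2 of the 8 tested members, Tet1 lower and Tet2 higher in females. Tet1 was 2.19-fold lower in females on the RPKM + 1 scale, with a log2 difference of -1.13 (SE 0.34, 95% interval -1.87 to -0.38, adjusted p = 0.0254 in limma). Within replicate number 1 the difference was -1.28 and within number 2 it was -0.98. Tet2 was 1.95-fold higher, with a log2 difference of 0.97 (SE 0.31, 95% interval 0.31 to 1.63, adjusted p = 0.0294), and the values within the numbers were 0.44 and 1.5. Tet3, with 0.56 (SE 0.23, adjusted p = 0.0852), did not pass. Over all tested genes 31.9% were called in this comparison, 17.6% higher and 14.3% lower in females, so 2 of 8 is a share close to the background. Centring each library on its median turned the balance of all calls from 2373 higher and 1939 lower to 1955 higher and 2407 lower, with Tet1 and Tet2 called as before. The median log2 difference of the 8 members was -0.04, beside 0.05 over all tested genes. No tested member had female Het libraries entirely above or below the male ones, while 17.3% of tested genes lay entirely above and 14% entirely below.

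Both calls were close to the threshold. They passed in 14 of 22 alternative settings each, with adjusted p from 0.000215 to 0.163 for Tet1 and from 0.00599 to 0.190 for Tet2. For Tet1 the call was lost without male Het1 replicate 2 (-1.01, adjusted p = 0.0646), male Het2 replicate 2 (-0.98, 0.0669), female Het1 replicate 1 (-1.05, 0.0541) or female Het2 replicate 1 (-0.84, 0.0665). The Tet2 call was lost without male Het1 replicate 2 (0.92, adjusted p = 0.0641), male Het2 replicate 1 (0.81, 0.0898), female Het1 replicate 2 (0.77, 0.0915) or female Het2 replicate 2 (0.81, 0.0787). The direction held in each of these settings. Tet3 passed in 2 of the 22 settings, when the WT libraries joined the controls (0.62, adjusted p = 0.0263) and without female Het1 replicate 1 (0.69, adjusted p = 0.0492).

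The make-up of Tet RNA within a library does not depend on a linear scaling of that library. Tet1 made up 85.6%, 92.6%, 92.8% and 91.9% of the summed RPKM of the 3 Tet genes in male Het, 84.0% and 90.6% in male KO, and 91.7% in male WT. In females its share was 73.1%, 69.2%, 59.1% and 75.9% in Het, 47.5% and 59.6% in KO, and 74.3% in WT. Every male PGC library thus had a larger Tet1 share than every female one. The share rests on the same Tet1 and Tet2 values as the calls between the sexes, so it is not a separate result. How often shares within other gene families separate the sexes was not examined. The Tet2 share in Het was 5.96% ± 3.42 in males (SD, n = 4) and 19.9% ± 2.64 in females (n = 4). The Tet3 share was 3.31% ± 0.41 in male Het and 10.8% ± 7.54 in female Het, and it reached 33.8% and 16.7% in the female KO libraries. The summed Tet RPKM averaged 87.0 ± 26.0 in male Het and 52.8 ± 20.9 in female Het, and the groups overlapped.

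**Figure D2:**
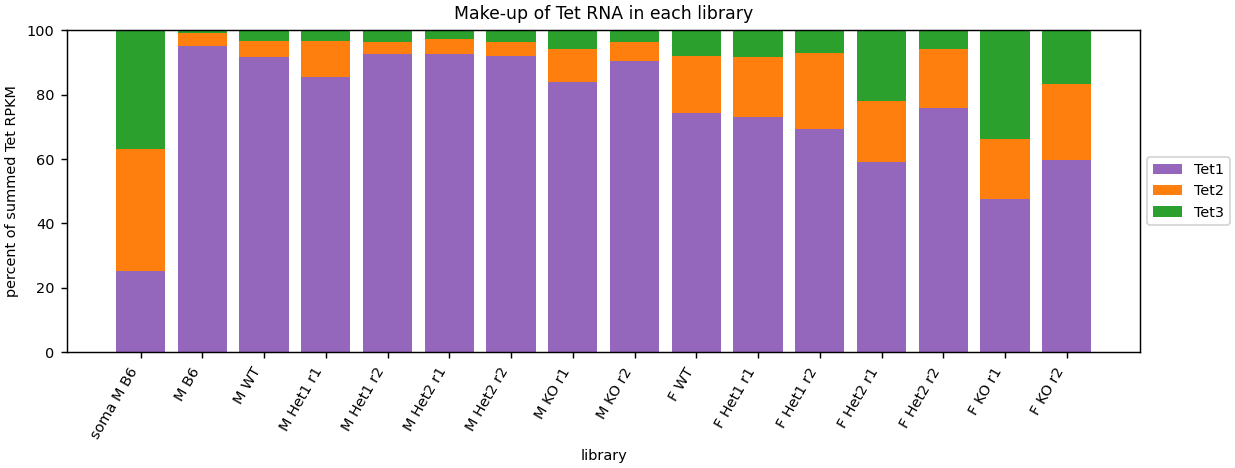
Share of Tet1, Tet2 and Tet3 in the summed Tet RPKM of each of the 16 RNA-seq libraries, in percent, 1 stacked bar per library. Tet1 made up 84.0% to 94.97% in the male PGC libraries, 47.5% to 75.9% in the female PGC libraries and 25.1% in male soma.

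The comparison of KO with Het asked whether loss of Setdb1 altered the RNA of these enzymes. None of the 8 tested members passed in males, where 0.614% of all tested genes were called (83 higher and none lower, with 615 genes at an unadjusted p under 0.05). None passed in females either, where 0.407% were called (54 higher and 1 lower, or 0.399% and 0.0074%, with 1670 at an unadjusted p under 0.05). Over both sexes together 1.04% of genes were called (137 higher and 4 lower, or 1.01% and 0.0296%, with 1708 unadjusted), again with no member. The members' median difference was 0.18 in males and 0.32 in females (log2), beside 0.03 and 0.07 over all tested genes. Centring each library on its median moved the latter from 0.07 to -0.07 in females.

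Tet3 in females had the largest difference of any member, 1.03 (SE 0.29, 95% interval 0.41 to 1.66), or 2.05-fold on the RPKM + 1 scale, with an unadjusted p of 0.0034 and an adjusted p of 0.167 in limma. Within replicate numbers 1 and 2 it was 1.17 and 0.90, and over the 22 alternatives it ranged from 0.82 to 1.25 with an adjusted p no lower than 0.0595. In males the Tet3 difference was 0.30 (SE 0.29, 95% interval -0.33 to 0.92). The difference between the sexes in the KO effect was 0.74 (SE 0.41, adjusted p = 1.0), so a sex-specific effect was not shown; 0.0518% of genes were called in that test, and 494 had an unadjusted p under 0.05.

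Dnmt3b had a male KO minus Het difference of 0.63 (SE 0.20, 95% interval 0.20 to 1.07, unadjusted p = 0.00812, adjusted p = 0.492 in limma). The male KO libraries, at 6.41 and 5.60 RPKM, lay above the 4 Het libraries at 3.16, 3.69, 4.18 and 3.09 and above WT at 3.65. In females the KO libraries had 4.49 and 4.70 RPKM against 3.25, 4.04, 2.34 and 3.35 in Het and 2.74 in WT, a difference of 0.41 (SE 0.20, adjusted p = 0.432). Over both sexes it was 0.52 (SE 0.14, 95% interval 0.21 to 0.83, adjusted p = 0.125), and over the 22 alternatives the adjusted p was no lower than 0.0690. Dnmt3b thus separated KO from Het in each sex by rank, without passing the test over all genes. Dnmt3a in females had 20.4 and 14.9 RPKM in KO against 13.8, 11.5, 11.96 and 11.2 in Het, a difference of 0.50 (SE 0.17, adjusted p = 0.264), whereas the male groups overlapped. Both KO libraries lay above all 4 Het libraries for Dnmt3b in males and for Dnmt3a, Dnmt3b and Tet3 in females. That is 1 of 8 and 3 of 8 tested members, beside 9.01% and 14.8% of all tested genes. The only member entirely below Het was Dnmt1 in males, with 4.13% of genes so placed in males and 5.62% in females, at a difference of -0.18 (SE 0.15, 95% interval -0.51 to 0.16).

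The remaining members had intervals that spanned 0 in each sex. The male differences were 0.17 for Uhrf1, -0.12 for Tet1, 0.36 for Tet2 and 0.19 for Tdg. In females they were 0.42 for Uhrf1 (95% interval -0.10 to 0.93), -0.52 for Tet1 (-1.44 to 0.39), -0.07 for Tet2 (-0.88 to 0.74) and 0.22 for Tdg (-0.34 to 0.78). The Tet1 interval includes 0 as well as a decrease of more than 2-fold. Within replicate numbers 1 and 2 the female Tet1 difference was -0.43 and -0.62. Between the control genotypes Het1 and Het2 no member passed, and 0.0148% of all tested genes did (2 of 13518, with 164 at an unadjusted p under 0.05).

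**Figure D3:**
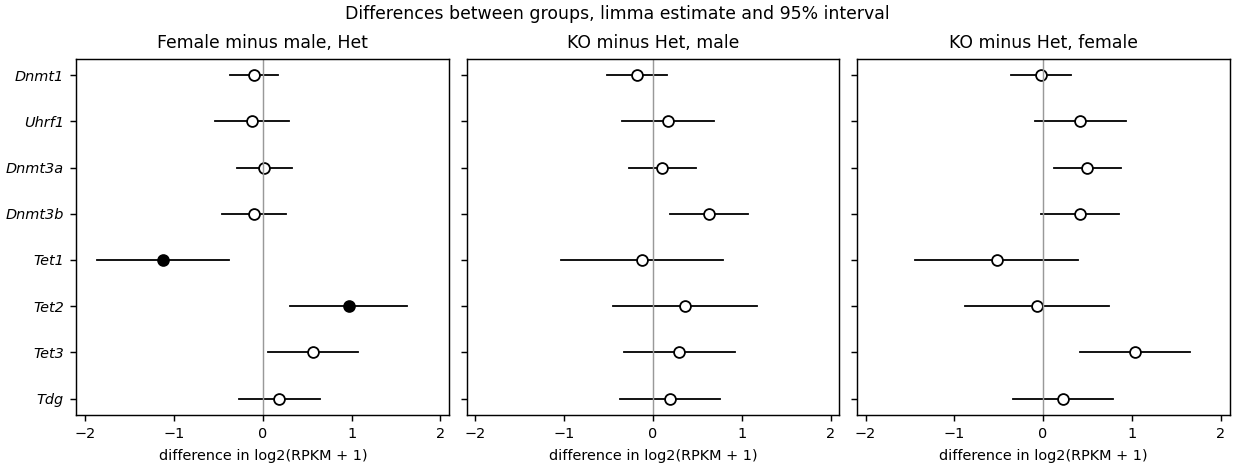
Differences of the 8 tested members on the log2(RPKM + 1) scale, as limma estimates with 95% intervals, for female minus male Het (left), KO minus Het in males (middle) and KO minus Het in females (right). Filled points passed an adjusted p of 0.05, which were Tet1 (-1.13) and Tet2 (0.97) in the left panel, and open points did not.

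Between soma and PGCs 5 of the 9 members differed by more than 2-fold. In the C57BL/6 pair, with 1 library each and hence no test, Tet3 had 21.9 RPKM in soma and 1.07 in PGCs, Dnmt3a 54.9 and 9.86, and Tet2 22.6 and 4.61. On the RPKM + 1 scale these were 11.1-fold, 5.15-fold and 4.21-fold more in soma. Tet1, at 14.9 RPKM in soma and 107 in PGCs, and Dnmt1, at 72.2 and 173, were 6.79-fold and 2.37-fold more in PGCs. Uhrf1, Dnmt3b and Tdg differed by less than 2-fold. Over the 13457 genes at RPKM 1 or more in either library, 28.7% were more than 2-fold higher and 17.6% more than 2-fold lower in soma. Tet3 was the member with the largest soma excess, and soma had Tet1, Tet2 and Tet3 at 25.1%, 38.0% and 36.9% of its Tet RNA.

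Markers of somatic cells therefore stand beside the KO values. The 8 stromal markers, all above 0 in every library, summed to 1844 RPKM in soma, to 14.3 to 42.2 in female Het, and to 38.6 to 53.0 in female KO. The 8 Sertoli markers summed to 26.3 to 47.9 RPKM in female Het and 56.5 to 71.6 in female KO, and the 6 pregranulosa markers to 8.73 to 17.9 and 18.7 to 22.6. The female WT library had 34.7 RPKM of stromal, 54.8 of Sertoli and 11.8 of pregranulosa markers. Its Sertoli sum thus lay above every female Het library. Other lists did not rise in this way. The 6 endothelial markers summed to 20.9 to 69.4 in female Het and 32.1 to 39.2 in female KO. The 6 Leydig markers summed to 4.88 to 12.3 and 5.71 to 6.26, and 6 macrophage markers to 2.84 to 5.83 and 2.64 to 8.70. The series had no RNA library of ovarian soma. Male soma had a pregranulosa sum of only 65.1 RPKM, and male Het libraries already stood at 16.1% to 18.8% of it. A percent of that sum therefore does not measure ovarian somatic cells. As a percent of the male soma level, the female KO libraries 1 and 2 had 2.88% and 2.09% of the stromal sum, 9.17% and 7.24% of the Sertoli sum, 34.7% and 28.7% of the pregranulosa sum, and 24.9% and 7.56% of the sum of 6 macrophage markers. In the same libraries Tet3 stood at 54.9% and 41.9% and Dnmt3a at 37.2% and 27.2% of their soma levels. Female Het libraries already had 15.1% to 31.0% for Tet3 and 20.4% to 25.2% for Dnmt3a. Their marker sums were at 0.778% to 2.29% for stromal, 3.36% to 6.14% for Sertoli, 13.4% to 27.5% for pregranulosa and 8.13% to 16.7% for macrophage markers. The 6 erythroid markers set 1 control library apart: they summed to 398 RPKM in female Het2 replicate 1, or 15.6% of soma, against 1.78 to 3.77 in the other female Het libraries, and to 67.0 and 2.19 in female KO. Female Het2 replicate 1 also had the lowest Tet1 and the highest Tet3 of the female Het libraries, and without it the Tet1 call between the sexes was lost, as given above. In males the 6 Leydig markers summed to 3.42 to 5.45 in Het and 29.2 to 66.8 in KO, against 768 in soma. The male WT library had 20.1 and the C57BL/6 PGC library 12.6, both above every male Het library. The germ cell markers summed to 1450 to 1805 in female Het and 1058 to 1378 in female KO. The part of these cell types in the differences was not tested, and in sorted bulk samples fewer cells of a type and less RNA per cell cannot be told apart.

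At promoters, ChIP-seq gave the RPKM within 1 kb of either side of the transcription start for H3K27me3, the mark of Polycomb repression, and for H3K9me3. Each sex and genotype had 1 library per mark, so there is no replicate check and no test. All Het libraries for ChIP were Setdb1 flox/-, and the KO libraries Setdb1 delta/-. By H3K27me3 the members fell into a marked set, above the median of every library, and a set mostly below it. A median has as many promoters above it as below it, so members on both sides say little by themselves. Tet3 had 2.05 RPKM in male Het, 1.40 in male KO, 1.19 in female Het and 0.756 in female KO, and in male Het 99.4% of the 22138 promoters had less. In female KO 89.3% had less than Tet3. Dnmt3l had 1.45, 1.25, 1.19 and 0.882 RPKM in the same order, Dnmt3b 1.37, 0.947, 1.08 and 0.872, and Uhrf1 1.11, 0.939, 0.939 and 0.492. Over the libraries 92.8% to 95.4% of promoters had less than Dnmt3l, 87.4% to 94.4% less than Dnmt3b and 74.9% to 90.4% less than Uhrf1. The other 5 members were between 0.064 and 0.296 RPKM and lay below their library's median (0.249 to 0.296), except Tet1 in male KO at 0.296. The lowest was Tdg in female Het, where 3.5% of promoters had less. The marked set joins Dnmt3l, which was nearly without RNA, with Uhrf1, which was among the most abundant.

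In all 4 marked promoters H3K27me3 was lower in KO than in Het in both sexes. For Tet3 the log2 difference (pseudocount 0.1) was -0.52 in males and -0.60 in females, for Dnmt3l -0.20 and -0.39, for Dnmt3b -0.49 and -0.28, and for Uhrf1 -0.22 and -0.81. None reached 2-fold in both sexes, a limit passed by 0.0556% of the 1800 promoters at RPKM 1 or more in both sexes (1 promoter). A decrease of any size in both sexes was seen at 42.9% of those promoters and an increase at 11.4%. Tet3, Dnmt3b and Dnmt3l reached that minimum level, and Uhrf1 did not. Dnmt3b reached it only through Het in both sexes, and Tet3 and Dnmt3l only through Het in females. Het is where they were higher, so their decrease is a description. Between the sexes Tet3 had less of the mark in females, with a log2 difference of -0.73 in Het and -0.81 in KO, as had Dnmt3l with -0.27 and -0.46. In KO both reached RPKM 1 only through the male library, where they were higher, so this too is a description. Of the 2237 promoters that qualified, 86.4% were lower in females in both genotypes and 0.224% passed 2-fold, 0.0894% lower and 0.134% higher.

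H3K9me3, the mark that SETDB1 places, was between 0 and 0.591 RPKM at the 9 promoters in PGCs, with library medians of 0.127 to 0.179. Several members nevertheless ranked above most promoters. Over the 4 libraries 78.8% to 93.8% of promoters had less than Tet3, and 85.6% to 91.4% less than Dnmt3l. For Uhrf1 it was 74.8% to 82.3%. Dnmt3b stood at 88.4% and 87.7% in male and female Het, and at 73.9% and 53.2% in KO. These members were also the ones with high H3K27me3. Tet2 ranked low, with 5.93% to 24.4% of promoters below it. No member reached the minimum of RPKM 1, and 7.56% of the 238 promoters that did differed at least 2-fold in both sexes, 7.14% lower and 0.42% higher in KO. A difference of any size in both sexes was seen at more of those promoters, as a decrease at 53.8% and as an increase at 11.3%. Dnmt3b went from 0.434 RPKM in Het to 0.283 in KO in males and from 0.451 to 0.159 in females. Tet3 went from 0.591 to 0.365 and from 0.364 to 0.292. Uhrf1 (log2 difference -0.15 in males and -0.14 in females) and Tdg (-0.18 and -0.86) were lower in KO too. Tdg had almost no signal in males, with 0.013 RPKM in Het and 0 in KO, and went from 0.196 to 0.063 in females. Dnmt1, Dnmt3a, Dnmt3l and Tet2 changed in opposite directions in the sexes. Tet1 moved the other way, from 0.186 to 0.384 in males and from 0.139 to 0.330 in females. In male soma, from C57BL/6 mice by its genotype label, the 9 promoters had 0.523 to 1.33 RPKM against a library median of 0.721. Dnmt1, with 1.23 in soma and 0.191 in male PGC Het, and Dnmt3l, with 1.33 and 0.382, were more than 2-fold higher in soma. These members reached the minimum of RPKM 1 only through soma, where they were high, so their excess is a description. Among the members under that minimum, Tdg (2.65), Tet2 (2.32), Dnmt3a (1.73), Tet1 (1.68) and Uhrf1 (1.29) had log2 differences of more than 2-fold too. They are given without centring, and the medians of all promoters were 0.721 RPKM in soma and 0.127 in male PGC Het. In that PGC library Tdg (0.013 RPKM) and Tet2 (0.025) lay below the pseudocount of 0.1. Of the 4306 promoters compared 81.9% passed 2-fold, 79.4% higher and 2.44% lower in soma. After each library was centred on its median the balance turned, with 483 promoters higher and 798 lower in soma, and Dnmt3l turned to -0.36 (log2) and Dnmt1 went to 0.26.

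**Figure D4:**
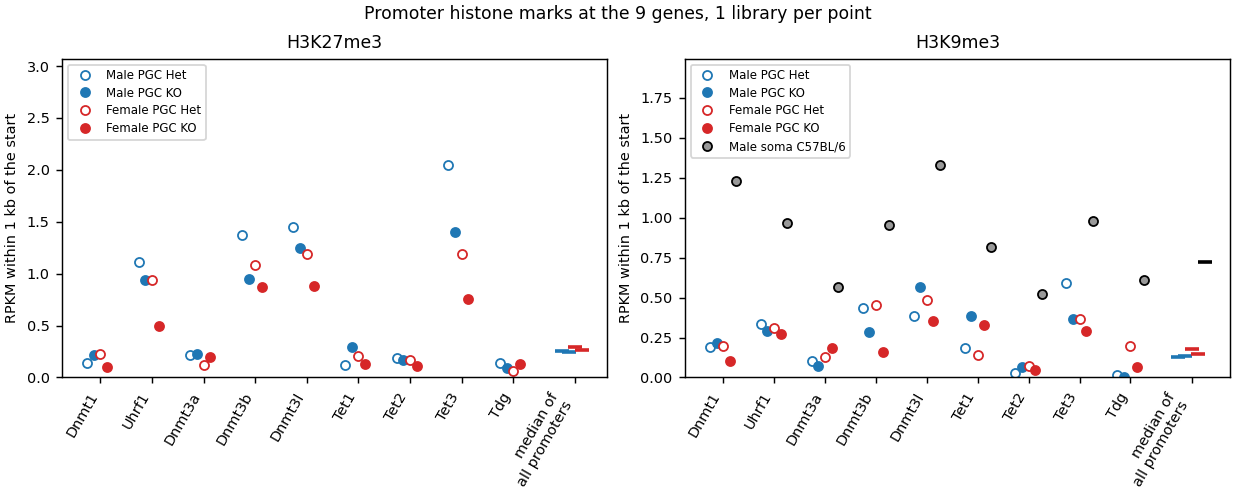
H3K27me3 (left) and H3K9me3 (right) at the promoters of the 9 genes, in RPKM within 1 kb of the transcription start, with 1 library per point and the median over all 22138 promoters of each library as a bar at the right. Uhrf1, Dnmt3b, Dnmt3l and Tet3 stood above the H3K27me3 medians of 0.249 to 0.296 in every library and were lower in KO (filled) than in Het (open) of the same sex.

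Genes around the members were described from 4 lists: 10 readers of methylated CG, 24 genes of oxidation, deamination and base excision repair, 19 partners and regulators of maintenance, and 16 genes of methyl donor metabolism. Between the sexes in Het, 3 of 10 tested readers were higher in females and 1 was lower, beside the 17.6% and 14.3% of all genes. Zbtb33, an X-linked gene that encodes the reader Kaiso, had 23.3 ± 3.85 RPKM in female Het and 13.2 ± 1.30 in male Het (SD, n = 4 each), a log2 difference of 0.76 (SE 0.15, adjusted p = 0.00289 in limma). Mbd5 (0.76) and Zbtb4 (0.62) were higher too, and Mbd3, a subunit of the NuRD complex, was lower (-0.59). The list's median was 0.16, beside 0.05 over all genes.

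In the oxidation and repair list, 5 of 22 tested genes were higher and 3 lower in females, beside 17.6% and 14.3% of all tested genes. The list's median was -0.05, beside 0.05 over all genes. Gadd45a, which has been tied to repair-based demethylation, had 12.9 ± 2.85 RPKM in female Het and 4.32 ± 0.28 in male Het (log2 difference 1.37, SE 0.16, adjusted p = 9.97e-05 in limma). Gadd45b (1.09), the glycosylase gene Neil3 (0.96), Idh2 (0.67), which makes the TET cofactor 2-oxoglutarate, and Vprbp (0.34) were also higher. Apobec2, a member of the cytidine deaminase family, had 1.30 ± 0.61 RPKM in female and 9.0 ± 5.14 in male Het (-1.99, SE 0.36, adjusted p = 0.00145). Cxxc4 (-0.80) and the endonuclease gene Apex1 (-0.71) were lower as well.

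Of 18 tested maintenance partners, 1 was higher and 4 were lower, beside 17.6% and 14.3% of all tested genes. Their median was 0.10, beside 0.05 over all genes. Dppa3, whose protein keeps UHRF1 from chromatin in oocytes, had 191 ± 73.6 RPKM in female Het and 591 ± 179 in male Het (-1.68, SE 0.30, adjusted p = 0.00135 in limma). Prdm14, a repressor of de novo methyltransferases in PGCs and embryonic stem cells, had 12.1 ± 6.39 and 21.4 ± 2.57 RPKM (-0.93, adjusted p = 0.0413). Cdca7 (-0.64) and the demethylase gene Kdm1a (-0.40) were lower too, and Kdm1b (0.41), a demethylase needed for imprint methylation in oocytes, was higher. Methyl donor metabolism had 5 of 13 tested genes lower and none higher, beside 14.3% and 17.6% of all tested genes, with a median of -0.26. Shmt2 had 18.6 ± 5.71 RPKM in female and 49.9 ± 12.5 in male Het (-1.39, SE 0.23, adjusted p = 0.000823), and Shmt1, its cytosolic counterpart, 28.2 ± 9.48 and 66.4 ± 6.93 (-1.26, adjusted p = 0.000718). Mthfd1 (-0.70), Mat2b (-0.60) and the methionine synthase gene Mtr (-0.56) were the others.

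In the KO comparisons no gene of the 4 lists passed, in either sex or over both. The largest differences in females were those of Zfp57, which protects imprints (0.98, SE 0.37, adjusted p = 0.300 in limma), Apobec3 (0.82, adjusted p = 0.304) and the transsulfuration gene Cbs (-0.56, adjusted p = 0.552).

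Among all tested genes, the 3 whose RNA followed Tet1 most closely over the 12 Het and KO libraries were Zfp106 (Pearson r = 0.986), Thrap3 (0.976) and Atp5g1 (0.973), on the log2(RPKM + 1) scale. For Tet3 they were Prdm11 (0.974), Lrrc58 (0.968) and D430041D05Rik (0.959), and for Dnmt3a Ptger4 (0.979), Epdr1 (0.955) and Spint2 (0.942). Tet2 was followed by Hivep1 (0.928), Gm2381 (0.921) and Car5b (0.918). Dnmt3b was matched less closely, by Palld (0.876), Lass4 (0.872) and Alox15 (0.868). The others had Toe1 (0.927), Csnk1g2 (0.873) and Rae1 (0.848) for Dnmt1, Ap3d1 (0.879), G6pdx (0.877) and Cenpm (0.873) for Uhrf1, and Magt1 (0.927), Tpm1 (0.916) and Bcl2l11 (0.906) for Tdg. These libraries share sex, genotype and replicate number, and each r was picked as the highest over all tested genes, so it is a description only.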

How the data were processed

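RNA-seq and promoter ChIP-seq tables of the whole series were used. Both hold RPKM values computed by the authors, per the file headers; reads were aligned to mm9, and BWA and SAMtools are named, per the submitters' processing notes, without versions. ChIP RPKM cover 1 kb on either side of Ensembl starts. The sources used here give neither the total behind the scaling nor any filter. A table of repeat families and 2 bisulfite libraries were not used here.

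Genes at RPKM 1 or more in at least 2 of the 12 Het and KO libraries (13518) were fitted with limma 3.58.1 (R 4.3.3) with a trended prior on log2(RPKM + 1), with 4 group means and Benjamini-Hochberg adjustment over all tested genes; the threshold was 0.05. Fold changes on this scale understate changes of low genes. The fit was tested on simulated data. With no depth given, RNA precision rests on the spread between libraries. Groups with 1 library got values only, and changes past 2-fold were called by size (pseudocount 0.1 for ChIP, 1 for RNA).

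Members, lists and tests were chosen with earlier results of these data known. All members were named. One gene of the list of readers of methylated CG is not reported here and was left out of that list's counts and median. Genes of the 4 lists were named where they passed, otherwise up to 3 by the size of their difference, and for each tested member the 3 genes with the highest Pearson r. Promoter sequences are from RefSeq (GRCm38.p6), and all 9 members matched. Alternatives were another pseudocount, filter, scaling and prior, a replicate block, either Het alone, WT added, and each library left out.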

Additional observations from a re-analysis of the deposited data

Results flagged for a closer look

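Of 20 groups of 4 libraries (the 9 members and Setdb1 in male and female Het), 2 held a library apart from the other 3 by Dixon's test, and chance alone marks about 1 in 20. Dnmt3l reached 1.23 RPKM in male Het1 replicate 1, while the other 3 male Het libraries were at 0 to 0.06. Tdg was at 3.53 RPKM in female Het2 replicate 1, below 6.07 to 6.34 in the other female Het libraries. That library also stood apart in the erythroid markers, at 398 RPKM against 1.78 to 3.77.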

How the results depend on the processing

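Count of called genes. Female minus male Het moved from 4312 to 1150 with Het1 and 1448 with Het2 alone, and ranged from 3221 to 4378 with each library left out. Male KO minus Het moved from 83 to 185 with no filter, 46 with a filter at mean RPKM 1, and 36 or 39 with Het1 or Het2 alone (59 to 88 with each library left out). The female count of 55 moved to 30 with a pseudocount of 0.1, 140 with no filter, 31 with the mean filter, 23 with median centring, 12 with quantile normalization, and 8 or 2 with Het1 or Het2 alone (7 to 166 with each library left out, over 1.5 times away in 10 of 12 cases, with 166 without female Het2 replicate 1 and 7 without female KO replicate 2). Over both sexes 141 moved to 310 with no filter, 74 with the mean filter, and 43 or 54 with Het1 or Het2 alone (68 without female KO replicate 1 to 260 without female Het2 replicate 1). The count for the sex difference of the KO effect, 7, moved to 0 with a pseudocount of 0.1, 64 with no filter, 4 with the mean filter, 1 with Het1 or Het2 alone, and 13 with median centring, quantile normalization, no trend or WT added (4 without female KO replicate 2 to 13 without male KO replicate 2). Het1 minus Het2 moved from 2 to 0 with no filter (0 to 3).

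Differences between the replicate libraries of a group correlated between groups at -0.04 to 0.56 in 15 pairs of groups, over 0.1 in 14. Most pairs of groups thus shared part of their difference between replicate numbers. The main fit nevertheless had no term for the number, and the fit with a replicate block is given beside it. With a replicate block the counts were 5347 between the sexes, 97 in male KO, 91 in female KO, 186 over both and 11 for the sex difference. With the block Tet1 and Tet2 stayed called between the sexes (adjusted p = 0.000215 and 0.0145 in limma) and no member was called in KO; the female KO difference of Tet1 had an SE of 0.18 in place of 0.42, with an unadjusted p of 0.0138 and an adjusted p of 0.178.

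Members. Tet1 and Tet2 between the sexes missed the threshold with no filter (adjusted p = 0.0525 and 0.0569), quantile normalization (0.0512 and 0.0707), Het1 alone (0.163 and 0.190) and Het2 alone (0.146 and 0.140); with fewer samples the Het1 and Het2 fits have less to call on, and the cause of the others was not tested. Among RNA differences of the members, signs turned only for those that never passed. Between the sexes these were Dnmt1 with quantile normalization (0.15), Dnmt3a with median centring (-0.0563), quantile normalization (-0.0285) or Het1 alone (-0.0217), Dnmt3b with Het1 alone (0.0674) and Tdg with Het2 alone (-0.13). In female KO they were Dnmt1 with quantile normalization (0.0683) or Het1 alone (0.000217), and Tet2 with Het2 alone (0.0366). With each library left out, differences between the sexes ranged from -0.31 to 0.0126 for Uhrf1, -0.0447 to 0.0503 for Dnmt3a and -0.19 to 0.00783 for Dnmt3b; in male KO from -0.0593 to 0.27 for Dnmt3a and -0.48 to 0.24 for Tet1; in female KO from -0.11 to 0.0451 for Dnmt1 and -0.50 to 0.36 for Tet2; and over both sexes from -0.0703 to 0.36 for Tet2.

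Promoter counts past 2-fold. H3K9me3 KO against Het moved from 18 to 1 with a pseudocount of 1 and 56 with a minimum of 0.5. H3K27me3 KO against Het moved from 1 to 0 and 7 under these settings and to 0 with median centring, and female against male, in the same order, from 5 to 0, 166 and 9. H3K9me3 in soma against male PGC Het moved from 3526 to 647, 13965 and 1281 (483 higher and 798 lower) in that order, and Dnmt3l turned to -0.36 with median centring. Promoter depth is unknown and 1 library stands behind each value.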

Other observations

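Tet1 was higher in replicate number 2 in 6 of 6 groups. The Tet1 difference by group was 0.87 in male Het1, 0.73 in male Het2, 0.71 in male KO, 0.58 in female Het1, 1.61 in female Het2 and 0.91 in female KO. Tet2, the other member called between the sexes, was higher in number 2 in 4 of 6 groups (0.45, adjusted p = 0.228). The labels do not say what the number stands for.

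Relative to Dnmt1, the level of Tet1 varied more than that of Uhrf1. The RPKM ratio of Tet1 to Dnmt1 was 0.493 ± 0.179 in male Het (SD, n = 4) and 0.255 ± 0.135 in female Het (n = 4), and that of Uhrf1 to Dnmt1 was 0.233 ± 0.0168 and 0.234 ± 0.0608. In KO the Uhrf1 to Dnmt1 ratio was 0.293 and 0.301 in males, beside 0.216 to 0.256 in male Het, and 0.338 and 0.289 in females, where they overlapped female Het (0.174 to 0.318). The ratio of Dnmt3a to Dnmt3b was 3.45 ± 0.65 in male Het and 2.15 ± 0.16 in male KO (n = 2), and 3.89 ± 1.01 and 3.86 ± 0.97 in female Het and KO. None of the genes in these ratios passed the test between KO and Het. How often ratios of other gene pairs separate these groups was not examined, so the ratios are a description.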
